A study of Rattus norvegicus with 24 samples.

Results

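The Notch pathway was followed with 10 genes through 24 RNA-seq libraries: the 4 receptors Notch1, Notch2, Notch3 and Notch4, the 4 ligands Jag1, Jag2, Dll1 and Dll4, and the 2 target genes Hes1 and Hey1. They were chosen by symbol from the 36856 genes of 3 count tables, 1 per experiment and tissue, with results of these comparisons already known, so their own differences are given as a description without p-values. All 10 are present in every table, and all 10 passed the filter on low counts in each comparison. The tissues were the papilla, which is the tip of the inner medulla, cut from 1 kidney, and a piece of heart ventricle, from Sprague-Dawley rats of 120 to 200 g that the labels call female. In the low-salt experiment rats ate synthetic food for 7 days with a Na content of 0.4% (control in the protocol, high salt in the sample titles) or of 0.01 to 0.02% (low salt), and both inner medulla and ventricle were taken. In the aldosterone experiment all rats ate the 0.4% Na food, and the treated group carried an Alzet osmotic minipump releasing aldosterone at 12 µg per day. The labels do not say whether the controls carried a pump, nor whether kidney and heart came from the same animals. Each of the 6 groups held 4 libraries, replicates 1 and 2 from batch 1 and replicates 3 and 4 from batch 2. The labels number the libraries of a group but do not tie them to separate animals, so the errors below measure the spread between libraries.

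Notch receptors are single-pass membrane proteins that bind Jagged and Delta-like ligands on a neighbouring cell. After binding, ADAM proteases and gamma-secretase cut the receptor, and its freed intracellular domain joins the DNA-binding protein RBPJ and Mastermind co-activators to switch on Hes and Hey genes, which encode transcriptional repressors. In the kidney collecting duct Notch signalling is known for favouring principal over intercalated cells, and in heart and vessels it is known for roles in valve, arterial and mural cell development.

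The libraries held 24299100 to 38318500 counts. Levels are normalised CPM, the count scaled to a library total that was itself rescaled by TMM, which lines up the bulk of genes across the 24 libraries. A level of 1 stood for 30.2 to 47.8 counts in the inner medulla libraries and 16.6 to 21.9 in the ventricle libraries. Levels are not corrected for gene length, so they are compared within a gene only. The 6 listed cardiomyocyte markers summed to 93589 to 118542 CPM in the ventricle libraries and to at most 4.51 CPM in inner medulla, while the 6 principal cell markers of the collecting duct summed to 8193 to 13973 CPM in inner medulla. The 4 ventricle libraries of batch 1 also held tubule transcripts: the 5 thick ascending limb markers summed to 2.96 to 153 CPM there, highest in high-salt replicate 2, against at most 0.160 CPM in the 4 ventricle libraries of batch 2 and 1205 to 2426 CPM in inner medulla of the same experiment. Levels of Xist, which marks the inactive X chromosome, were 198 to 377 CPM in the 8 aldosterone and control libraries. In the 16 low-salt and high-salt libraries Xist reached at most 0.0729 CPM, and 4 Y-linked genes summed to 163 to 275 CPM. The label of sex and the transcripts thus differ for those 16 libraries.

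The stretch around the start of transcription is shown for Hes1, the member that stood apart by diet in ventricle, and for Notch1 and Notch2, the members that did so in inner medulla. Windows of 300 bases (250 before to 50 after the start, 5′ to 3′ on the gene's strand, RefSeq GRCr8) were found for 8 of the 10 genes, with a pair of windows for Jag2 and 9 in all. Capitals mark TGGGAA on either strand, the core of the sequence that RBPJ is known to bind.
Hes1: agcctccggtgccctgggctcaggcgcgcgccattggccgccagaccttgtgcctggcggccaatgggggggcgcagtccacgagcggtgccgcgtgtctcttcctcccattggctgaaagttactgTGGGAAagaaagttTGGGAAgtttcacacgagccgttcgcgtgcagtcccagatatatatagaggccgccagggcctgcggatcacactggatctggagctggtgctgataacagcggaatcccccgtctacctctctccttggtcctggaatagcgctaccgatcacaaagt
Notch1: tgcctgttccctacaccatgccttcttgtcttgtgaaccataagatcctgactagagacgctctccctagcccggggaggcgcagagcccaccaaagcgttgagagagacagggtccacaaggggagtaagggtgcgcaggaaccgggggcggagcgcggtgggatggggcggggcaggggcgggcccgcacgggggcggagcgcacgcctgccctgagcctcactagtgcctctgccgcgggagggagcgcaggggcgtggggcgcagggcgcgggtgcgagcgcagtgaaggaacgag
Notch2: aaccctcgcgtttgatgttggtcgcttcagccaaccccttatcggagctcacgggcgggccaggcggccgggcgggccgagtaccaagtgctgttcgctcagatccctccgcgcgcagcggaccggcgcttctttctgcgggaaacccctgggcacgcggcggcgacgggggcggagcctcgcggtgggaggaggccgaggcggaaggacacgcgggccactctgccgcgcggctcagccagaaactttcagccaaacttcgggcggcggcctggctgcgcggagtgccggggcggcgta
The Hes1 window (chr11:84212996-84213295, minus strand) holds 2 matches, which begin 123 and 109 bases before the start, and the first is the end of the longer GTGGGAA. The windows of Notch1 (chr3:29721564-29721863, minus strand) and Notch2 (chr2:188299086-188299385, plus strand) hold none, nor do those of Jag1 and Jag2. Dll1 and Notch4 have 2 matches each and Notch3 has 1. In Dll1, 1 match is also part of the longer GTGGGAA, on the opposite strand of the window. Of 33469 windows of the same length in the table, 25.68% hold TGGGAA on either strand and 3.85% hold 2 or more, and 6.29% hold GTGGGAA. A match is a run of letters and does not show that RBPJ binds there.

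**Figure D1:**
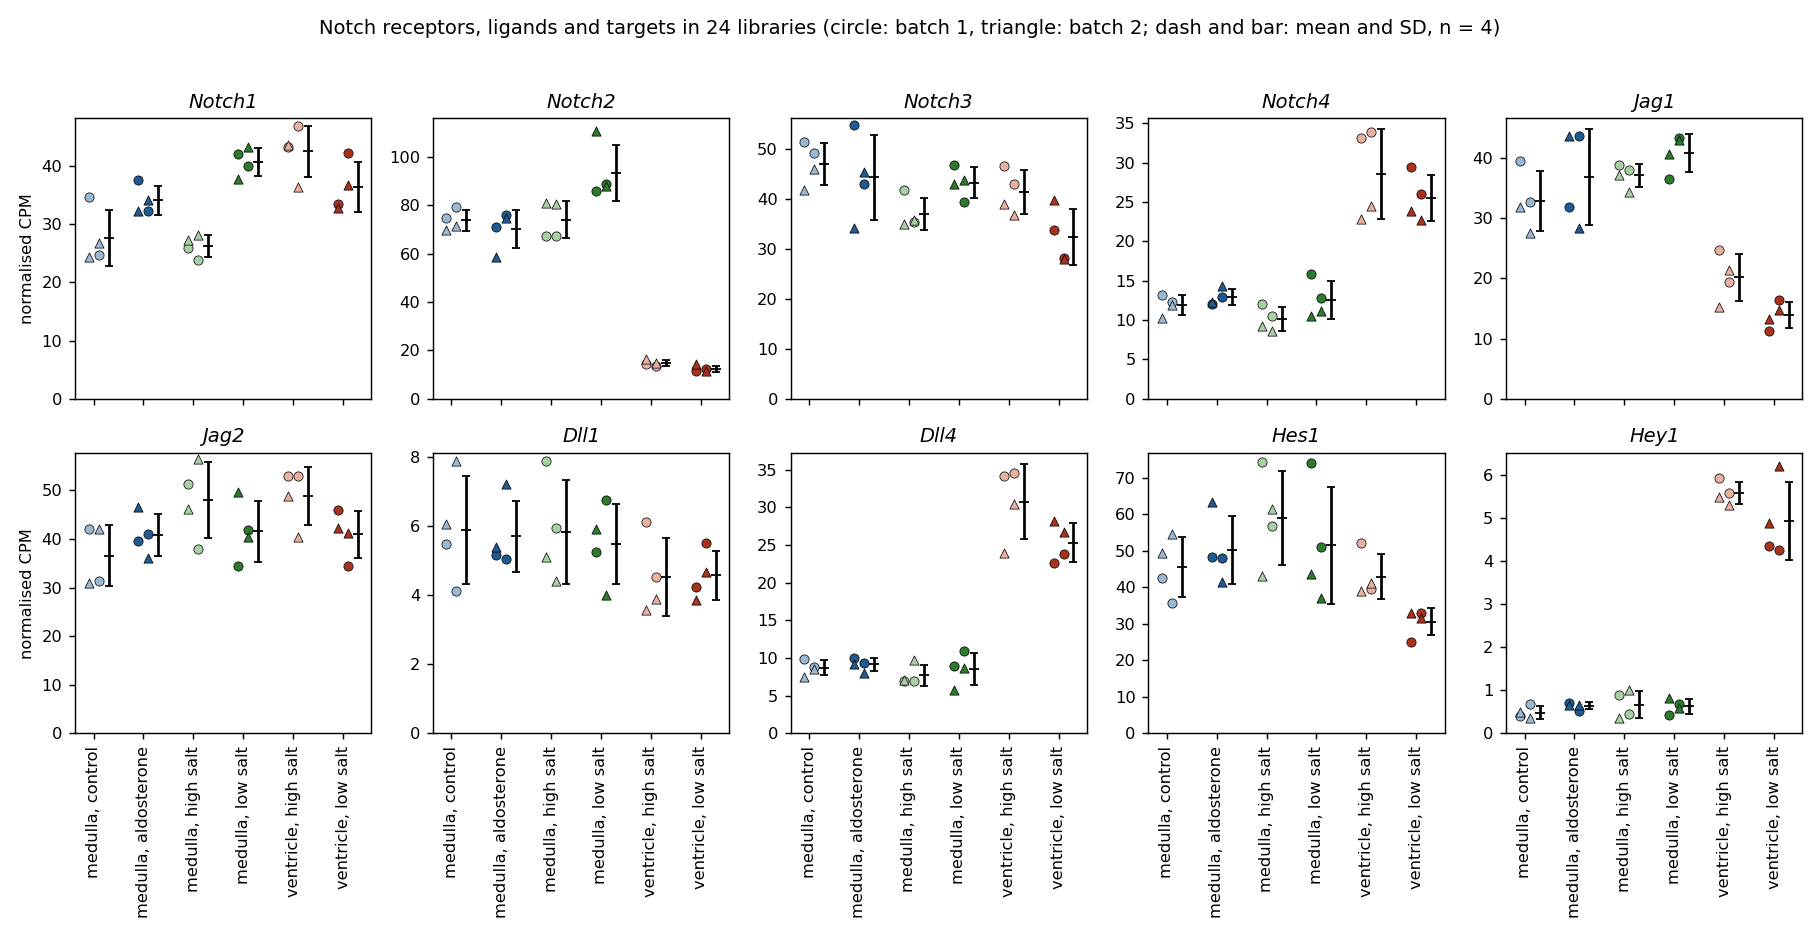
Levels of the 10 genes in normalised CPM (linear axes that start at 0) in 6 groups of 4 libraries, with circles for batch 1, triangles for batch 2, and the mean with its SD beside them. Notch2 and Jag1 were higher in every inner medulla library than in any ventricle library, and Notch4, Dll4 and Hey1 were lower in every one. For Notch4 this did not hold with total counts only. Notch1 on low salt lay above Notch1 on high salt in inner medulla.

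Low salt against high salt in inner medulla asked how the papilla responds to restricted Na intake. Notch1, the receptor for which the pathway is best known, measured 42.0, 40.0, 37.7 and 43.2 normalised CPM in low-salt replicates 1 to 4 and 25.9, 23.8, 27.3 and 28.1 CPM on high salt. All 4 low-salt libraries were above all 4 high-salt libraries, with a log2 fold change of 0.63 ± 0.07 (SE) or 1.54-fold. Notch2, the receptor known for its part in nephron segment formation, measured 86.0, 88.7, 111 and 88.0 CPM with low salt against 67.2, 67.5, 81.0 and 80.6 CPM on high salt. These groups did not overlap either, at a log2 fold change of 0.33 ± 0.07, and replicate 3, at 111 CPM, was the highest of the low-salt libraries. Changes in the RNA of a gene and in the share of cells that carry it cannot be told apart in whole tissue.

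The remaining receptors overlapped between diets. Notch3, a receptor of vascular mural cells, measured 46.8, 39.4, 43.0 and 43.9 CPM on low salt against 41.8, 35.4, 35.0 and 35.7 CPM on high salt (log2 0.22 ± 0.09), where high-salt replicate 1 lay within the low-salt range. Notch4, a receptor of endothelial cells, measured 15.9, 12.9, 10.5 and 11.1 CPM on low salt against 12.1, 10.5, 9.27 and 8.65 CPM on high salt (0.30 ± 0.11). For Notch4 the batch 1 libraries were the higher pair within either diet, and the difference within a batch was 0.33 in batch 1 and 0.26 in batch 2. Within batches Notch1 differed by 0.71 and 0.54, Notch2 by 0.37 and 0.29, and Notch3 by 0.16 and 0.29, so the 4 receptors were higher on low salt in both batches.

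The ligands and targets had smaller or less even differences. Jag1, a Jagged ligand, ran from 36.5 to 43.4 CPM with low salt against 34.4 to 38.8 CPM on high salt (log2 0.13 ± 0.08), and Jag2, its close relative, from 34.4 to 49.7 and from 38.0 to 56.4 CPM (-0.22 ± 0.13). Dll1, a Delta-like ligand, had a log2 fold change of -0.08 ± 0.19. Dll4, the Delta-like ligand of endothelial cells, measured 8.997, 10.9, 5.82 and 8.63 CPM on low salt against 6.99, 6.97, 7.11 and 9.70 CPM on high salt. It was higher on low salt in batch 1 and lower in batch 2, with log2 differences of 0.48 and -0.21. Hes1, the most widely used readout of Notch activity, measured 74.1, 51.0, 43.7 and 37.1 CPM on low salt against 74.3, 56.8, 43.0 and 61.4 CPM on high salt (-0.23 ± 0.17). Hey1, a target gene of arterial endothelium, stood at 0.417 to 0.831 and 0.356 to 1.00 CPM (-0.11 ± 0.40), on 15 to 42 counts per library. For both target genes the ranges of the diets overlapped.

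By edgeR's quasi-likelihood F test with batch as a term and Benjamini-Hochberg adjustment over 18449 genes, 1 of the 10 genes, Notch1, was called higher and none lower, where 1.09% of all genes were called higher and 2.46% in either direction. Groups did not overlap for 2 of 10, both higher, against 5.1% of all genes without overlap and higher and 11.2% in either direction. Since the genes were chosen from these contrasts, nothing is read from those counts. The median log2 fold change was 0.13 over the 10 genes and -0.0035 over all genes. On leaving out high-salt replicate 2, high-salt replicate 3 or low-salt replicate 3, Notch1 had log2 fold changes of 0.59, 0.63 and 0.68 and was not called. Over all genes these fits called 15 higher and 9 lower, 22 and 16, and 2 and 0, against 201 and 253 in the main fit. Notch2 was called as well by DESeq2 (log2 0.34), with a 1 CPM filter (0.34) and without low-salt replicate 4 (0.40).

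**Figure D2:**
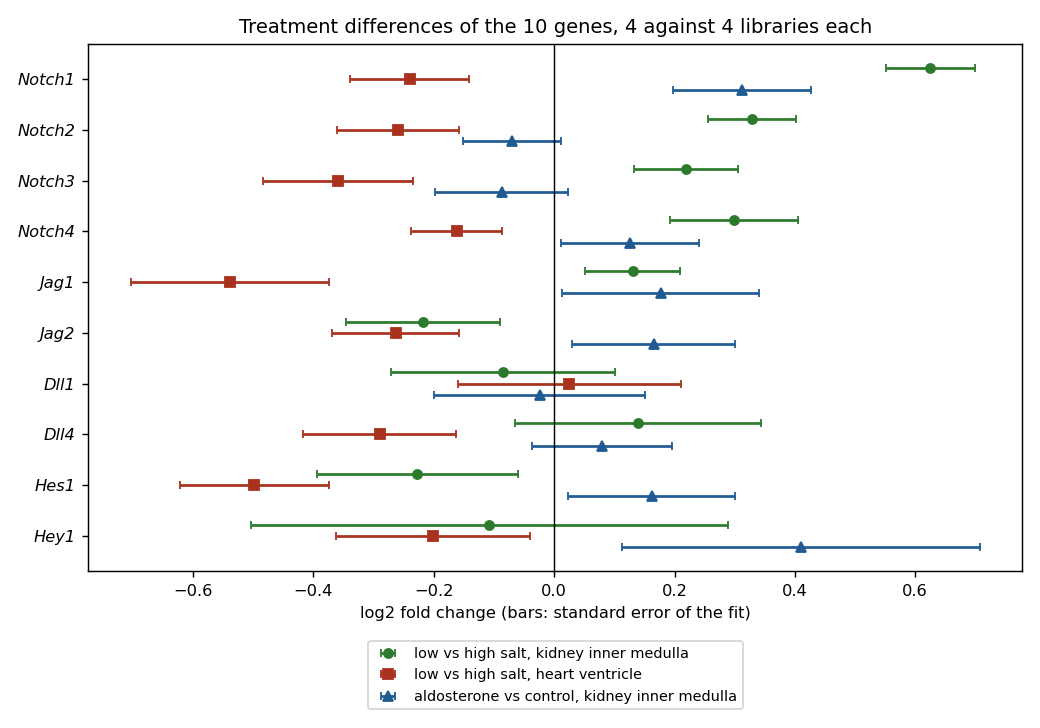
Log2 fold changes of the 10 genes (horizontal axis) in low against high salt in inner medulla (green circles) and ventricle (red squares) and in aldosterone against control in inner medulla (blue triangles), with bars for the standard error of the fit, 4 against 4 libraries each. All 4 receptors lie right of 0 in inner medulla on low salt, from 0.22 to 0.63, and left of 0 in ventricle, from -0.36 to -0.16.

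Among the cell type markers measured beside these genes in inner medulla, the 11 endothelial markers had a median log2 fold change of -0.10, with 8 of 11 below 0 and 1, Emcn, called lower. Their sum was 385 to 643 CPM with low salt against 565 to 679 CPM on high salt. The 7 tested of 8 smooth muscle and pericyte markers had a median of -0.17, with 4 negative and 3 positive. Their sums were 61.2 to 71.3 and 64.0 to 80.8 CPM. Principal cell markers summed to 8193 to 11301 and 9838 to 12028 CPM, with 1 of 6, Slc14a2, called lower. All 6 intercalated cell markers (median 0.38, sums of 920 to 1879 and 797 to 1281 CPM) and all 5 proximal tubule markers (0.75, 77.9 to 323 and 47.9 to 255 CPM) had positive log2 fold changes. Of the urothelium markers 4 of 5 (median -0.83) and of the cell cycle genes 6 of 6 (-0.30) were negative. None of the intercalated, proximal tubule, urothelium or cell cycle genes was called, and the summed ranges of the diets overlapped for every list named here. Their part in the receptor values was not tested.

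In ventricle, 9 of the 10 genes had negative log2 fold changes on low salt and none was called. Hes1 measured 25.1, 32.9, 32.9 and 31.5 CPM on low salt against 52.1, 39.6, 38.9 and 41.1 CPM on high salt, a log2 fold change of -0.50 ± 0.12. It was the only member whose groups did not overlap, lower in all 4 low-salt libraries, and high-salt replicate 1 was the highest library. Jag1 measured 11.3, 16.4, 13.2 and 14.8 CPM on low salt against 24.7, 19.5, 15.2 and 21.4 CPM on high salt, or -0.54 ± 0.16, with high-salt replicate 3 inside the low-salt range.

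The receptors in ventricle were lower on low salt by mean, with overlap in each case. Notch1 measured 33.5, 42.3, 32.8 and 36.6 CPM on low salt against 43.2, 46.9, 43.6 and 36.4 CPM on high salt (log2 -0.24 ± 0.10). Notch2 measured 11.4, 12.5, 14.2 and 11.5 CPM on low salt against 14.2, 13.6, 16.5 and 14.7 CPM on high salt (-0.26 ± 0.10). Notch3 ran from 28.0 to 39.9 and from 36.7 to 46.7 CPM (-0.36 ± 0.12). The difference of Notch4 was -0.16 ± 0.08, and its level followed the batch more than the diet, at 33.1 and 33.9 CPM in batch 1 and 22.9 and 24.5 CPM in batch 2 on high salt. On low salt Notch4 ran from 22.7 to 29.5 CPM, again with both batch 1 libraries above both of batch 2.

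Jag2 differed by -0.26 ± 0.11, Dll1 by 0.03 ± 0.19 and Hey1 by -0.20 ± 0.16 in ventricle. Dll4 measured 22.6, 23.8, 28.2 and 26.7 CPM on low salt against 34.2, 34.5, 23.9 and 30.4 CPM on high salt (log2 -0.29 ± 0.13). Its difference within a batch was -0.56 in batch 1 and 0.02 in batch 2. Hey1 (-0.38 and 0.03) and Notch4 (-0.27 and -0.02) also had most of their difference in batch 1, the batch whose ventricle libraries held tubule transcripts. Hes1 (-0.65 and -0.31), Jag1 (-0.67 and -0.35), Notch1 (-0.26 and -0.20), Notch2 (-0.21 and -0.27), Notch3 (-0.53 and -0.18) and Jag2 (-0.41 and -0.09) were lower in both batches. The part of the tubule transcripts in these values was not tested.

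The edgeR test in ventricle called 0 of the 10 genes, where 0.0517% of 15473 genes were called. At an unadjusted p under 0.05 there were 6 of the 10 and 1641 of the 15473, a description only, and DESeq2 called 1, Hes1. With the replicate number as a block in place of batch, edgeR called none of the 10 and 0 genes in all, with 1363 genes at an unadjusted p under 0.05. Groups did not overlap for 1 of 10 against 4.99% of all genes, and nothing is read from either count because the genes were selected on this contrast. The median log2 fold change was -0.26 over the 10 genes and -0.0081 over all genes.

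Markers of several cell types were also lower in ventricle on low salt by mean. All 5 fibroblast markers had negative log2 fold changes (median -0.32), with sums of 1580 to 3449 CPM with low salt against 2663 to 3627 CPM on high salt. The 7 tested smooth muscle and pericyte markers had a median of -0.25, with 4 negative and 3 positive. Their sums were 303 to 387 and 378 to 433 CPM, and 2 of the 7 markers did not overlap between diets. Endothelial markers had a median of -0.03 and sums of 1302 to 1571 and 1316 to 1608 CPM. All 6 cell cycle genes were negative (median -0.47, sums of 22.2 to 35.4 and 12.3 to 125 CPM). So were all 5 leukocyte markers (-0.19, 144 to 190 and 149 to 230 CPM). The kidney tubule lists were split. All 5 proximal tubule markers (0.64) and the 2 intercalated cell markers tested (0.55) were positive. The 2 thick ascending limb markers (-3.69) and 2 principal cell markers (-2.84) tested were negative. The last 2 lists summed highest in high-salt replicate 2, and proximal tubule markers in low-salt replicate 2. None of these markers was called in ventricle, and their part in the values of the 10 genes was not tested.

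The responses to diet in the tissues were set against each other in an edgeR fit over both tables with a batch term in each, as a description, since the genes were chosen with both responses known. The inner medulla change minus the ventricle change was 0.87 ± 0.13 on the log2 scale for Notch1 and 0.60 ± 0.12 for Notch2, both called, where 0.376% of 19408 genes were called in that direction and 0.83% in either. The differences were 0.68 ± 0.19 for Jag1, 0.59 ± 0.16 for Notch3 and 0.47 ± 0.13 for Notch4, which were not called. They were 0.44 ± 0.25 for Dll4, 0.28 ± 0.23 for Hes1, 0.10 ± 0.44 for Hey1, 0.05 ± 0.18 for Jag2 and -0.10 ± 0.26 for Dll1. The median was 0.45 over the 10 genes and 0.02 over all genes. Notch1 was not called without heart high-salt replicate 2 (0.84), the ventricle library with the highest sum of thick ascending limb markers, or in batch 2 alone (0.79). Over all genes these fits called 6 higher and 5 lower, and 6 and 1, against 73 and 88 in the main fit. Notch2 was called in 3 of the 16 fits that leave out a library (without heart low-salt replicate 3, kidney high-salt replicate 4 or kidney low-salt replicate 4) and not in the others, with log2 values from 0.52 to 0.66 over the 16, nor in batch 2 alone (0.61).

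Aldosterone against control asked how inner medulla responds to the hormone without a change of diet. No member was called and none had groups without overlap. Notch1 measured 37.6, 32.2, 32.3 and 34.2 CPM with aldosterone and 34.7, 24.6, 24.4 and 26.8 CPM in controls. Control replicate 1 lay within the treated range and the other control libraries below it, and the log2 fold change was 0.31 ± 0.12. Notch2 measured 70.9, 75.8, 58.7 and 74.8 CPM with aldosterone and 74.6, 79.4, 69.8 and 71.3 CPM in controls (-0.07 ± 0.08). Notch3 and Notch4 had log2 fold changes of -0.09 ± 0.11 and 0.13 ± 0.11.

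Among the ligands under aldosterone, Jag1 ran from 28.4 to 43.8 CPM against 27.5 to 39.6 CPM (log2 0.18 ± 0.16), and the values were 0.17 ± 0.14 for Jag2, -0.02 ± 0.18 for Dll1 and 0.08 ± 0.12 for Dll4. Hes1 measured 48.2, 48.1, 63.4 and 41.5 CPM with aldosterone and 42.6, 35.6, 49.4 and 54.6 CPM in controls (0.16 ± 0.14). Within batches Hes1 differed by 0.30 and -0.02. Hey1 stood at 0.519 to 0.705 and 0.347 to 0.687 CPM, on 11 to 25 counts per library (0.41 ± 0.30). The median was 0.14 over the 10 genes, of which 7 were positive, and 0.0041 over all genes. The edgeR test called 0% of 17671 genes, 1 of the 10 and 1750 of all genes had an unadjusted p under 0.05, DESeq2 called none of the 10, and 5.2% of all genes had no overlap.

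The cell cycle genes moved beside these values: all 6 listed had higher levels in every aldosterone library than in any control (median log2 1.72, none called), with sums of 81.5 to 147 and 16 to 49.1 CPM. Positive log2 fold changes also held for 4 of 4 fibroblast markers tested (median 0.98, sums of 92.6 to 293 and 70.8 to 226 CPM, Col1a1 without overlap), 5 of 5 thick ascending limb markers (0.64, 1918 to 3938 and 908 to 2233 CPM) and 6 of 7 smooth muscle and pericyte markers tested (0.46, 66.5 to 110 and 46.3 to 87.7 CPM), none called. All 5 urothelium (median 0.50), 5 leukocyte (0.41) and 5 tested intercalated cell markers (0.28) were positive too, as were 3 of 5 proximal tubule markers (0.36). Of the principal cell markers 4 of 6 were negative (-0.14), and none of these was called either. Endothelial markers were positive in 10 of 11 cases, with a median of 0.07, and summed to 489 to 846 and 507 to 767 CPM. Their part in the values of the 10 genes was not tested. The aldosterone change minus the low-salt change in inner medulla was -0.42 ± 0.11 for Notch2, -0.33 ± 0.14 for Notch1, -0.33 ± 0.14 for Notch3 and -0.19 ± 0.15 for Notch4 on the log2 scale. It was 0.37 ± 0.24 for Hes1 and 0.36 ± 0.20 for Jag2. None of the 10 was called by edgeR, where 0.0528% of 18938 genes were, 3 of the 10 and 2486 of all genes had an unadjusted p under 0.05, and DESeq2 called Notch2. The 2 experiments differ in their sex-linked transcripts, so that response and sex pattern cannot be told apart in this difference.

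Inner medulla against ventricle was compared on high salt, the diet that served as control. Under this diet Notch2 averaged 74.1 ± 7.79 CPM (SD, n = 4) in inner medulla and 14.8 ± 1.28 CPM in ventricle, 4.94-fold higher (log2 2.31 ± 0.09). Jag1 averaged 37.1 ± 1.93 and 20.2 ± 3.94 CPM (log2 0.87 ± 0.13). The lowest inner medulla library of Jag1 on high salt, at 34.4 CPM, was above the highest ventricle library, at 24.7 CPM. Notch4, Dll4 and Hey1 went the other way. Notch4 averaged 10.1 ± 1.505 and 28.6 ± 5.73 CPM (-1.51 ± 0.09), Dll4 7.69 ± 1.34 and 30.8 ± 4.94 CPM (-2.01 ± 0.18), and Hey1 0.671 ± 0.321 and 5.58 ± 0.263 CPM (-3.07 ± 0.32). None of these 5 genes overlapped between the tissues on this diet.

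The other 5 members depended on scaling or overlapped. Notch1 averaged 26.3 ± 1.90 CPM in inner medulla and 42.5 ± 4.40 CPM in ventricle on high salt (log2 -0.71 ± 0.09), without overlap. Scaled by total counts only, its difference was 0.19, and on low salt with TMM it was 0.16. Hes1 averaged 58.9 ± 12.9 and 42.9 ± 6.21 CPM (0.43 ± 0.16) with overlap. It was called in the main fit and lost without heart high-salt replicate 2, 3 or 4 (0.39, 0.39 and 0.42) or kidney high-salt replicate 1 or 4 (0.38 and 0.29), with no batch term (0.44) and in batch 2 alone (0.34). Notch3 (-0.18 ± 0.11), Jag2 (-0.04 ± 0.13) and Dll1 (0.35 ± 0.19) overlapped and were not called, and with total counts they stood at 0.73, 0.86 and 1.26 and were all called. Notch3 was also called on low salt (0.41), and Dll1 with upper quartile scaling (0.53) and without heart high-salt replicate 1 (0.48).

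Of the 10 genes, 3 were called higher in inner medulla and 4 lower, where 42.9% and 37% of 19408 genes were called in those directions and 79.9% in either. Groups did not overlap for 6 of 10 against 71.9% of all genes. With total counts 6 of the 10 were called higher and 3 lower, Notch1 in neither direction. Scaling by total counts moved the median of all genes from 0.16 to 1.06 and the genes called from 8325 higher and 7189 lower to 12772 and 4055. Notch2, Notch4, Jag1, Dll1, Dll4, Hes1 and Hey1 kept the sign of their difference in all 26 alternative fits. The tissues were deposited in separate tables, and tissue and table cannot be told apart. Of the 11 endothelial markers 8 were lower in inner medulla and 1, Emcn, higher, with sums of 565 to 679 CPM on high salt against 1316 to 1608 CPM in ventricle, and their part in the values of Notch4, Dll4 and Hey1 was not tested.

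**Figure D3:**
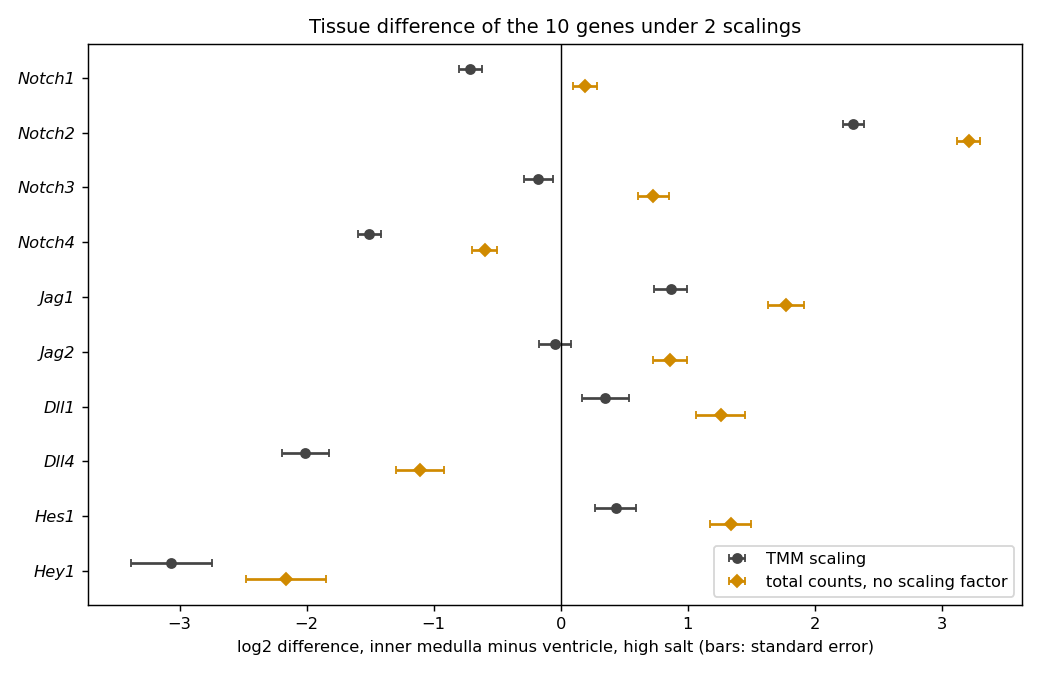
Log2 difference between inner medulla and ventricle on high salt (horizontal axis) for the 10 genes with TMM scaling (grey circles) and with total counts only (orange diamonds), with bars for the standard error and 4 libraries per tissue. Total counts move every gene to the right, Notch1 from -0.71 to 0.19, while Notch4, Dll4 and Hey1 stay left of 0 and Notch2 and Jag1 right of it.

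Ordered by mean level over the 6 groups, Notch2 was highest in inner medulla on low salt, at 93.4 ± 11.7 CPM and apart from the next group. High salt, aldosterone controls and aldosterone followed in inner medulla and overlapped in turn. A further gap lay between 58.7 CPM with aldosterone and 16.5 CPM in ventricle on high salt. The ventricle groups overlapped each other, the lowest at 12.4 ± 1.30 CPM on low salt. In normalised CPM the order of Notch4, Dll4 and Hey1 was set by tissue. Both ventricle groups overlapped each other and lay apart above 4 inner medulla groups that overlapped their neighbours. With CPM of total counts only, Dll4 and Hey1 kept this gap and Notch4 lost it. Notch4 then ran from 14.96 to 18.56 CPM in ventricle on low salt. It ran from 13.04 to 19.75 CPM in inner medulla on low salt and from 14.36 to 17.78 CPM with aldosterone. Its high-salt groups stayed apart, at 10.57 to 15.48 CPM in inner medulla and 15.53 to 23.34 CPM in ventricle. In normalised CPM Jag1 had the inverse order by tissue, with a gap between the tissues alone. It ran from 40.9 ± 3.19 CPM in inner medulla on low salt to 13.9 ± 2.17 CPM in ventricle on low salt. Hes1 had a gap only below ventricle on high salt, with ventricle on low salt lowest at 30.6 ± 3.71 CPM. For Notch1, Notch3, Jag2 and Dll1 every group overlapped its neighbour in the order. Notch1 was highest in ventricle on high salt and lowest in inner medulla on the same diet, and inner medulla on low salt, at 40.7 ± 2.41 CPM, ranked second.

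The rest of the pathway was followed in 52 genes that act before, within or after the receptors. They too were listed with earlier results of these data known, so the p-values given for them are descriptive. None of the 52 was called by edgeR in the aldosterone comparison (46 tested), in inner medulla on low salt (47 tested) or in ventricle (45 tested). At an unadjusted p under 0.05 there were 4, 11 and 4 of them. Of all genes there were 1750 of 17671, 3621 of 18449 and 1641 of 15473. DESeq2 called 1 higher with aldosterone (Dtx4), 2 higher (Adam10 and Heyl) and 3 lower (Ctbp1, Pofut1 and Rfng) on low salt in inner medulla, and 1 higher in ventricle (Furin). Of all genes DESeq2 called 299 higher and 74 lower, then 823 and 872, then 189 and 114, in the same order. The median log2 fold changes of the 52 were -0.03, -0.04 and -0.02 in these comparisons, and those of all genes 0.0041, -0.0035 and -0.0081.

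In inner medulla on low salt the 5 enzymes that add sugars to Notch receptors all had negative log2 fold changes, with a median of -0.29. Pofut1, which adds O-fucose, averaged 52.0 ± 1.96 CPM with low salt against 63.2 ± 4.21 CPM on high salt (n = 4), with ranges of 49.5 to 54.0 and 59.2 to 68.7 CPM. Its log2 fold change was -0.29 ± 0.06 with an edgeR adjusted p of 0.0510. Rfng, a Fringe enzyme that extends O-fucose, ran from 21.2 to 22.4 CPM with low salt against 23.9 to 29.4 CPM on high salt (-0.34 ± 0.08, adjusted p 0.0630 by edgeR). These 2 genes and Poglut1 had no overlap between diets, each lower on low salt, and did not pass the edgeR threshold. Over the 47 pathway genes tested, 4 were lower without overlap and 2 higher without overlap. Of all genes, 6.09% were lower without overlap and 5.1% higher. The lists were drawn up with earlier results known, so nothing is read from these counts.

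Of the 9 receptor-cutting genes tested in inner medulla, 7 had negative and 2 positive log2 fold changes on low salt. Adam10, the protease that makes the first cut after ligand binding, stood at 0.17 ± 0.05 (adjusted p 0.0995 by edgeR) and Aph1b, a gamma-secretase subunit, at -0.26 ± 0.08 (0.115). In the nuclear list of 13, 9 were positive (median 0.08) and 4 had an unadjusted p under 0.05, where 3621 of 18449 genes did. Ctbp1, a co-repressor, stood at -0.25 ± 0.06 (0.0708), and Tle1, another, ran from 13.2 to 15.3 CPM with low salt against 11.5 to 12.7 CPM on high salt, without overlap (0.20 ± 0.08, 0.215). Among the 6 tested from the list of other Hes and Hey genes and Nrarp, Heyl was at 0.64 ± 0.19 (0.121). Nrarp, a feedback inhibitor, was at -0.58 ± 0.30 (0.326). Of 13 ubiquitin ligases and Numb proteins none had an unadjusted p under 0.05, led by Numbl at -0.26 ± 0.19 (0.508) and Mib2 at -0.08 ± 0.06 (0.549). Dlk2, the only further ligand tested, was at -0.05 ± 0.52 (0.974).

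With aldosterone the smallest p-values of these lists belonged to Dtx4, a Deltex ligase (log2 0.72 ± 0.19, edgeR adjusted p 0.274), and Nrarp (0.66 ± 0.20, 0.351). Nrarp averaged 4.35 ± 0.570 CPM with aldosterone and 2.76 ± 0.530 CPM in controls. It was the 1 gene without overlap among the 46 tested, where 5.2% of all genes had no overlap and 3.11% were higher without overlap. Spen, a co-repressor that partners RBPJ, was at -0.28 ± 0.10 (0.396), Maml3, a Mastermind co-activator, at -0.41 ± 0.19 (0.538), Itch at -0.21 ± 0.08 (0.427) and Hey2 at 0.74 ± 0.33 (0.516). Aph1a stood at 0.11 (0.594), Adam17 at -0.13 (0.603), Poglut1 at -0.22 (0.547) and Pofut1 at -0.17 (0.623).

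In ventricle on low salt Furin, the protease that matures Notch receptors, averaged 205 ± 7.68 CPM against 167 ± 19.97 CPM on high salt, without overlap (log2 0.29 ± 0.07, edgeR adjusted p 0.267). Psen2 stood at -0.18 (0.431), Dtx4 at -0.19 (0.442), Rfng at 0.16 (0.497), Spen at -0.15 (0.570), Tle4 at -0.14 (0.594), Dner at 0.29 (0.601) and Dlk1 at 0.61 (0.614). Mib2 was at 0.09 (0.674), Poglut1 at 0.10 (0.712), Hes2 at -0.24 (0.765) and Nrarp at -0.27 (0.774). For the difference of the low-salt responses, inner medulla minus ventricle, edgeR called none of 49 tested. At an unadjusted p under 0.05 there were 11 of the 49 and 2799 of all 19408 genes. DESeq2 called 4 lower (Ctbp1, Furin, Psenen and Rfng), where it called 338 higher and 483 lower of all genes. Rfng had an edgeR adjusted p of 0.0582 there, at -0.49 ± 0.11. For the difference of the kidney responses edgeR called none of 47. At an unadjusted p under 0.05 there were 4 of the 47 and 2486 of all 18938 genes. DESeq2 called Nrarp higher, where it called 371 higher and 286 lower of all genes.

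Between tissues on high salt 24 of 49 further pathway genes were called higher in inner medulla and 19 lower by edgeR, shares near those of all genes (42.9% and 37%). Heyl averaged 1.84 CPM in inner medulla and 55.2 CPM in ventricle (log2 -4.94 ± 0.14, adjusted p 5.84e-13), and Hey2, a target gene known for its role in the ventricle, 2.82 and 33.6 CPM (-3.58 ± 0.15, 3.32e-11). Of the 6 tested from the list of other Hes and Hey genes and Nrarp, 4 were lower in inner medulla, as Hey1 was. Hes7 and Hes6 were higher (2.33 ± 0.47 and 0.29 ± 0.08). Dner, a transmembrane ligand, averaged 0.0545 and 5.90 CPM.

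Higher in inner medulla were Tle2, a Groucho-type co-repressor (log2 4.17 ± 0.20), Rbpjl, a relative of RBPJ (2.53 ± 0.39), Neurl1b and Dtx2 (2.89 ± 0.17 and 1.83 ± 0.09), Aph1b and Furin (2.50 ± 0.10 and 2.36 ± 0.10), and Poglut1 and Pofut1 (1.42 ± 0.08 and 1.09 ± 0.08). Lower were Fbxw7, a ligase that marks the Notch intracellular domain for breakdown (-2.56 ± 0.09), Numbl (-2.24 ± 0.18), Mfng and Rfng (-1.64 ± 0.17 and -0.48 ± 0.08), Psen2 and Adam17 (-1.30 ± 0.08 and -0.32 ± 0.06) and Ctbp1 (-0.99 ± 0.05). Rbpj itself, the DNA-binding partner of all 4 receptors, averaged 66.8 and 70.3 CPM (-0.09 ± 0.07, edgeR adjusted p 0.251). These values use TMM scaling. Scaling by total counts moved the median of all genes from 0.16 to 1.06, and values of these genes with total counts are not given here. The direction of smaller differences, such as those of Rfng, Adam17 and Rbpj, may thus depend on the scaling.

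The 10 genes varied little together from library to library once the mean of each group and batch was removed. Over the 24 libraries, which share these 12 means and so hold mirrored pairs of values, the highest Pearson r of log2 CPM was 0.57, between Notch3 and Notch4, followed by 0.41 between Notch2 and Notch3. The lowest was -0.66 between Notch3 and Jag1, and Notch2 and Dll4 stood at -0.51. Notch1 and Hes1 had an r of 0.22. These are descriptions without a test.

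**Figure D4:**
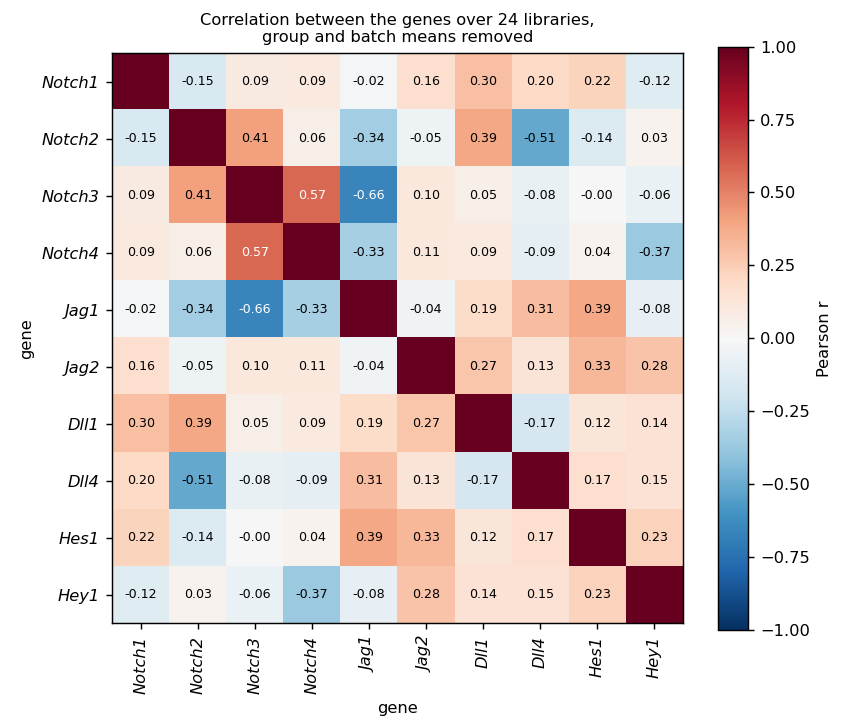
Pearson r between the 10 genes (both axes) over 24 libraries on log2 CPM with the mean of each group and batch removed, coloured from -1 (blue) to 1 (red). Most cells are pale, and the strongest are 0.57 for Notch3 with Notch4 and -0.66 for Notch3 with Jag1.

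Among 9885 other genes with a mean of 5 CPM or more in each table, those most like Notch1 on this measure were Gabbr1 (r = 0.88), Tp53i13 (0.86) and Tctn1 (0.86), and those most like Notch2 were Zbtb14 (0.82), Mettl17 (0.81) and Dsp (0.80). For Hes1 they were Rnf220 (0.86), Sp100 (0.84) and Mgat2 (0.82). The first genes for Notch3, Notch4, Jag1 and Jag2 were Uckl1 (0.89), Commd5 (0.91), Ns5atp4 (0.86) and Rab10 (0.86), and those for Dll1, Dll4 and Hey1 were Max (0.77), RT1-N3 (0.87) and Mgst1 (0.84). They are the extremes of a search over all those genes on 24 libraries, and no other member was among the 3 first genes of any member.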

How the data were processed

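RNA was sequenced from kidney papilla and heart ventricle in 24 libraries, 6 groups of 4. Per the labels' protocols a stranded mRNA kit (TruSeq) was used with 50 cycles from 1 end. Tools listed in the submitters' processing notes are Salmon, Trimmomatic, MultiQC and bcl2fastq 2.19, with build, annotation and strand setting not given in the sources used here. Expected counts, which Salmon-type tools estimate per gene and which can be fractional, were deposited by the authors in 3 tables of 36856 genes, and all 36856 symbols occur in a RefSeq table of GRCr8. No other column of values was present.

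Counts were rounded. In edgeR 4.0.16 (R 4.3.3), low genes were removed with filterByExpr (minimum count 10), and the rest were scaled by TMM and tested by the quasi-likelihood F test with batch as a term (within each table in joint fits). P-values were adjusted by Benjamini and Hochberg's method across every gene tested, and a gene is called where the adjusted p is under 0.05. Each treatment comparison used the 8 libraries of its table, and tissue and response differences 16 libraries. Errors of log2 fold changes are standard errors derived from the test, as the absolute log2 fold change over the square root of F. Errors of mean CPM are the SD. Correlations used log2 of CPM plus 0.5. The script was tested on simulated data. No pair of libraries within a group agreed within sampling noise (36 pairs).

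The 10 genes and all lists were chosen with earlier results of these data known. Named were all 10, and from 6 lists of 52 other pathway genes those past the threshold in a treatment comparison or a difference of responses, the 2 with the smallest p per list and treatment comparison, and between tissues the 2 largest log2 fold changes per list and direction at 1 CPM or more in a tissue. Outside this rule, Rbpj, Poglut1 (in inner medulla on low salt), Tle1, Psenen and the markers Emcn, Slc14a2 and Col1a1 were named after their values were seen. Of the genes this rule names, 1 is not reported here. Marker lists served to check tissues.

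Same-numbered libraries share a batch by label. Their deviations from group means correlated above 0.1 for every number in the ventricle comparison (0.19, 0.23, 0.24 and 0.18) and between tissues on high salt (0.26, 0.31, 0.23 and 0.29). In ventricle each library correlated best with the other library of its batch in the opposite group, not with its own number. Alternatives were DESeq2 1.42.0, other scalings and filters, a fit without batch, a replicate block, batches alone and each library left out.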

Additional observations from a re-analysis of the deposited data

Results flagged for a closer look

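In 5 of the 60 sets of 4 libraries (10 genes in 6 groups), 1 library stood off from the rest by more than Dixon's critical gap for a group of that size, which chance gives in about 1 of 20 sets. Notch2 stood at 111 CPM in inner medulla on low salt replicate 3, against 86.0 to 88.7 CPM in the other libraries of that group. Notch3 stood at 41.8 CPM in inner medulla on high salt replicate 1, against 35.0 to 35.7 CPM. Dll1 stood at 7.23 CPM in aldosterone replicate 4, against 5.04 to 5.40 CPM. Dll4 stood at 9.70 CPM in inner medulla on high salt replicate 4, against 6.97 to 7.11 CPM. Hes1 stood at 52.1 CPM in ventricle on high salt replicate 1, against 38.9 to 41.1 CPM. The 5 libraries are 5 different ones, from 4 groups.

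The low-salt change in inner medulla minus that in ventricle was 0.87 for Notch1 and 0.60 for Notch2 on the log2 scale, and both passed the threshold in the fit of the difference over 16 libraries. The genes were chosen with both responses known, so this is a description. Neither passed in batch 2 alone (0.79 and 0.61), where 6 higher and 1 lower of all genes were called. Notch2 passed in 3 of 16 fits that leave out a library.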

How the results depend on the processing

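The number of the 10 genes called was 0 in every fit of the aldosterone comparison. Between tissues it was 7 (3 higher, 4 lower), with 8 under upper quartile scaling, 9 with total counts (6 higher, 3 lower), 4 higher and 3 lower on low salt, and 6 to 8 on leaving out a library. For low salt in inner medulla it was 1, with 2 by DESeq2, 2 with a 1 CPM filter, 0 in batch 1 alone, 0 in batch 2 alone and 0 to 2 on leaving out a library. In ventricle it was 0, with 1 by DESeq2 (Hes1). For the difference of low-salt responses it was 2, with 5 by DESeq2, 1 with no batch term, 0 in batch 2 alone (chosen after seeing tubule transcripts in the ventricle libraries of batch 1) and 0 to 3 on leaving out a library. For the difference of kidney responses it was 0, with 1 by DESeq2 (Notch2). Higher on average in inner medulla than in ventricle on high salt were 4 genes with TMM and 7 with total counts. The tissue difference of Notch1 reversed to 0.19 with total counts and to 0.16 on low salt. The cause of these changes was not tested.

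With the replicate number as a block, the difference of low-salt responses kept 1 of the 10 genes called, and Notch2 was no longer called (0.59). The block changed no other count of members. It moved genes called from 454 to 30 higher and 22 lower for low salt in inner medulla, from 8 to 0 in ventricle (1363 at an unadjusted p under 0.05), from 161 to 9 higher and 7 lower for the difference of low-salt responses and from 10 to 0 for that of kidney responses (2748 at an unadjusted p under 0.05). Same-numbered libraries in inner medulla did not all correlate above 0.1 (aldosterone 0.11, 0.21, -0.04 and 0.39, low salt -0.04, 0.30, -0.04 and -0.03), nor did the tissues on low salt (0.02, 0.32, 0.08 and 0.23).

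Over all genes, DESeq2 called 299 higher and 74 lower with aldosterone (edgeR 0, with 1750 at an unadjusted p under 0.05), 823 and 872 on low salt in inner medulla, 189 and 114 in ventricle, 338 and 483 for the difference of low-salt responses and 371 and 286 for that of kidney responses. Without a batch term the counts were 80 and 85, 0 and 1, 6 and 8, and 0 and 0 (2088 at an unadjusted p under 0.05) in the last 4 comparisons. Without a filter they were 48 and 37 in ventricle and 27 and 25 for kidney responses. In inner medulla on low salt, batch 1 alone gave 0 (2660 at an unadjusted p under 0.05) and batch 2 alone 204 and 36. Leaving out a library gave 2 to 423 genes in inner medulla, fewest without low-salt replicate 3, 1 to 8 in ventricle, 11 to 194 for the difference of low-salt responses, fewest without heart high-salt replicate 2, and 0 to 67 for kidney responses. Between tissues upper quartile scaling gave 9288 higher and 6461 lower. Hey1 in inner medulla rests on 11 to 42 counts per library, which limits its precision.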
